A study of Mus musculus with 12 samples.

Results

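The change of medium described here is EGF plus cAMP against LIF in neurospheres derived from adult mouse skin fibroblasts. It rests on 2 of the 12 arrays of the series, 1 for each medium. LIF (leukaemia inhibitory factor) is a cytokine, EGF (epidermal growth factor) a mitogen, and cAMP (cyclic AMP) a second messenger. Each array measured 45101 probe sets, and 11943 of these reached a deposited signal of 100 on at least 1 of the 2 arrays. Among them 11030 named a single gene, which gave 7382 genes, each represented by its brightest such probe set over all 12 arrays. Signals are MAS5 values on a linear scale with a trimmed mean of 100 on every array. The difference used throughout is log2(signal + 5) on the EGF and cAMP array minus log2(signal + 5) on the LIF array. A gene is called higher or lower with EGF and cAMP at a difference of 1 or more either way, that is 2-fold on this scale. There is no replicate array, so no value has an error and no difference was tested.

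Both adult-derived cultures came from C57BL/6 mice and were grown in a medium that the labels name MHM. The labels record what was added (EGF and cAMP to one culture, LIF to the other) without doses or times, name no transgene, and do not say whether both cultures had the same starting fibroblasts. The 3 agents therefore differ at once between the 2 arrays, and the share of each cannot be told apart. For reference the text uses C57BL/6 adult skin fibroblasts, iPS and ES cells grown in their standard conditions, and C57BL/6 neurospheres of ganglionic eminence (GE), where forebrain neurons are born, at embryonic day 14, each on 1 array. It also sets beside the adult-derived pair the embryonic fibroblast-derived neurospheres of the same strain grown in MHM with LIF or with LIF and cAMP, 1 array each. That pair shares no array with the adult-derived pair, but its change of medium is another one, since LIF stays in both cultures.

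LIF binds a receptor made of LIFR and gp130 (Il6st), and the attached Janus kinases phosphorylate STAT3, which enters the nucleus and turns on genes such as Socs3. In mouse pluripotent cells this pathway holds up self-renewal, and in many cell types it drives acute-phase genes together with C/EBP factors. EGF acts through the receptor tyrosine kinase Egfr and the ERK kinases, is a standard mitogen of neural stem cells in neurospheres, and induces immediate-early genes and feedback inhibitors of the Dusp and Sprouty families. cAMP activates protein kinase A, which phosphorylates CREB, and CREB acts at cAMP response elements (CREs) in genes such as Nr4a1.

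The promoters of 5 genes on which the results below turn are shown as the 250 bases before the start site, from RefSeq on GRCm38.p6, 5′ to 3′ on the strand of the gene. Capitals mark a match to 1 motif each. These are the C/EBP motif TTNNGCAA in Saa3 (chr7:46715677-46715926, minus strand) and Lcn2 (chr2:32387740-32387989, minus), the 2 genes of the STAT3 list that differed most, and the STAT motif TTCNNNGAA in Socs3 (chr11:117969367-117969616, minus), a target of STAT3 that differed little. The AP-1 motif TGANTCA is marked in Mmp3 (chr9:7445572-7445821, plus), the gene of the ERK list that differed most, and the CRE half-site TGACG, read on either strand, in Nr4a1 (chr15:101266596-101266845, plus), a CREB target.
Saa3: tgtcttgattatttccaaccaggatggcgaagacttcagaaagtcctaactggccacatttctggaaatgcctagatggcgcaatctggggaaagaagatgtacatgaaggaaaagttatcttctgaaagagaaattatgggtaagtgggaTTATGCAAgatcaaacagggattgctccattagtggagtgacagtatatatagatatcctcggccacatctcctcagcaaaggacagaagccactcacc
Lcn2: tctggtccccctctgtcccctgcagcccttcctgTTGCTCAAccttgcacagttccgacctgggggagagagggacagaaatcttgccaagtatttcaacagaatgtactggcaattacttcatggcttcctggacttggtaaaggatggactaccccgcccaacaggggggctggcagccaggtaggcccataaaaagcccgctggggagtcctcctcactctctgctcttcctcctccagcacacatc
Socs3: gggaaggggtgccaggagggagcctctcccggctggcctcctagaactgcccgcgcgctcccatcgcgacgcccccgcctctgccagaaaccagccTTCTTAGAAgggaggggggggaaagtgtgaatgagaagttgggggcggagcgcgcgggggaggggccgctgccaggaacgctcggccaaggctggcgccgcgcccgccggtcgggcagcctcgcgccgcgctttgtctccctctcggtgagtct
Mmp3: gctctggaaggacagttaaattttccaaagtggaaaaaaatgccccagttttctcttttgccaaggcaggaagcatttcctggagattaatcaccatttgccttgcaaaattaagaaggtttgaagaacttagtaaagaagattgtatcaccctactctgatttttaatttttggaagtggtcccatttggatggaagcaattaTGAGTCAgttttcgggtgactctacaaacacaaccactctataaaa
Nr4a1: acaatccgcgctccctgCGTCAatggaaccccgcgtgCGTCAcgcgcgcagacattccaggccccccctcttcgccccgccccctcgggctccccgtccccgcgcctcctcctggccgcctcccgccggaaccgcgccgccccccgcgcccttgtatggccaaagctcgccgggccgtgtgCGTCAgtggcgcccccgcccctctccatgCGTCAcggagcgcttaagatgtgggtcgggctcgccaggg
The match begins 99 bases before the start site in Saa3, 216 in Lcn2, 154 in Socs3 and 46 in Mmp3, and Nr4a1 holds 4 half-sites. Motifs were searched on both strands. A full CRE (TGACGTCA) also counts as a half-site. Of the 404 genes lower with EGF and cAMP, 298 have a promoter in the table, and 16.4% of these hold the C/EBP motif, beside 8.94% of the 6077 genes compared that have a promoter and 9.56% of all 32851 promoters. The STAT motif occurs in 7.05%, 6.7% and 7.02%, the AP-1 motif in 9.4%, 4.95% and 6.75%, and the CRE half-site in 22.5%, 32.9% and 17.8%, in the same order. In the 110 higher genes with a promoter the shares are 10% for C/EBP, 4.55% for STAT, 5.45% for AP-1 and 13.6% for the CRE half-site. A match is a run of letters, and binding was not measured.

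Far more genes were lower than higher with EGF and cAMP, and the lower ones differed more. Of the 7382 genes, 143 (1.94%) were higher and 404 (5.47%) lower, so that 73.9% of the 547 called genes were lower. These shares are the background beside which every count of list members in the adult-derived pair below is to be read. The shares of the embryonic-derived pair are given with its own counts. A difference of 3 or more was reached by 3 higher and 50 lower genes. The median difference of all genes was 0.02, with quartiles at -0.25 and 0.25. Across these genes the 2 arrays correlated at r = 0.892, as a description across genes of 2 libraries. The array with LIF was closer to the embryonic-derived LIF array (0.927) than the array with EGF and cAMP was (0.861). The calls thinned with brightness: 7.1% of genes at 100 to 200 were lower and 2.78% of those at 1000 or more. The 9 bacterial spike-in probe sets for hybridization were all brighter on the EGF and cAMP array, by 0.25 to 0.52 on log2. With the arrays scaled to these controls the split became 61 higher and 700 lower (92.0% lower), and the median of all genes moved to -0.33. The ratio of 3′ to 5′ probe sets was 1.45 with EGF and cAMP and 1.35 with LIF for Actb, and 0.775 and 0.768 for Gapdh.

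Of the called genes with several probe sets at the minimum, 125 of 127 had 1 sign on all of them, and the 2 that did not were Pdxdc1 and Tm7sf3. Among the other genes with several probe sets this was so for 1595 of 2381. Genes at the edge show how sharp the limits are. Cavin2 entered at a signal of 100 with LIF, and Fbln1 stayed out at 99.9. Bcat1 counted as higher at a difference of 1.002 and Pdxp did not at 0.998, while Lactb counted as lower at -1.001 and Gdf5 did not at -0.999.

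**Figure D1:**
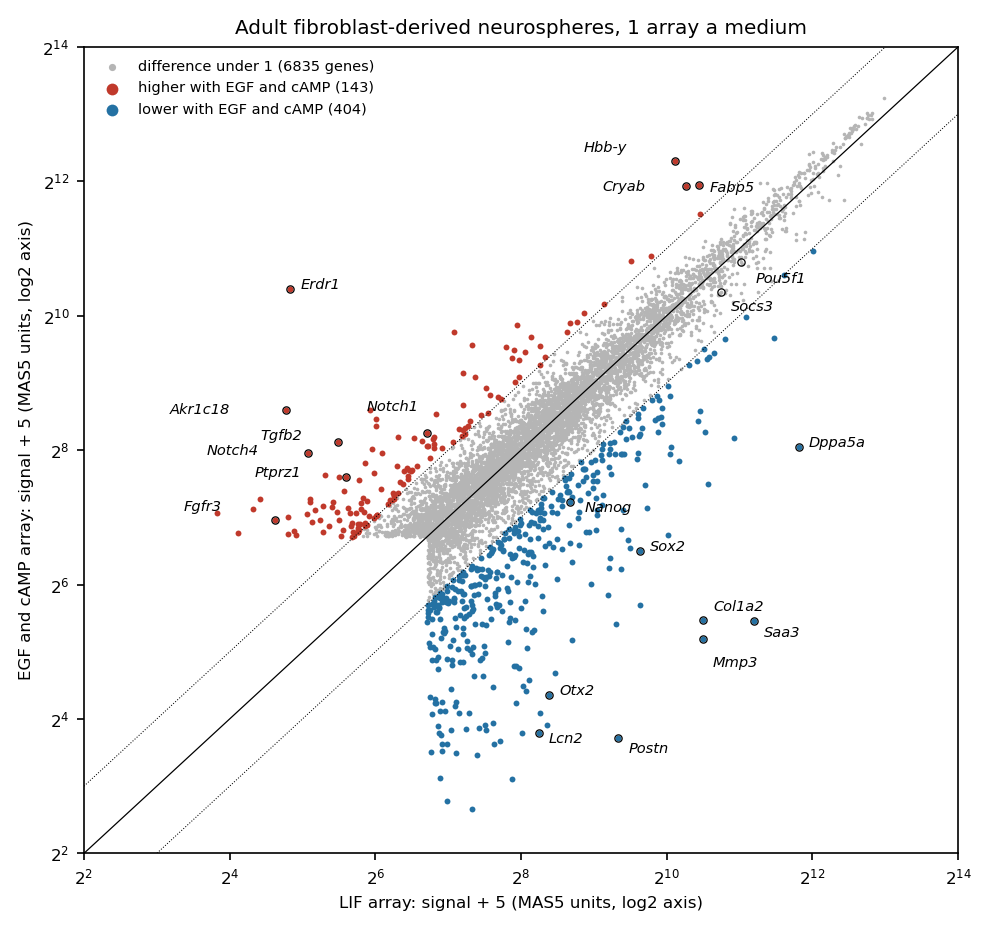
Signal + 5 of 7382 genes on the LIF array (x) and on the EGF and cAMP array (y), both in MAS5 units on log2 axes, 1 array each. Red points are the 143 genes higher and blue points the 404 genes lower by 2-fold or more (dotted lines), and the solid line marks equal signals; the lower right holds Saa3, Postn, Mmp3 and Col1a2, while Pou5f1 and Socs3 lie between the dotted lines.

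The 15 largest differences on the lower side join acute-phase and defence genes, extracellular matrix genes and early embryonic genes. Saa3, a serum amyloid A protein of the acute phase, stood at 38.8 with EGF and cAMP and 2345 with LIF, a difference of -5.75 (53.6-fold). Its relative Saa1 stood at 1.3 and 155.8, Lcn2, which binds the siderophores of bacteria, at 8.9 and 299, and the antimicrobial lectin Reg3g at 1.9 and 122. All 4 lay between 1.3 and 38.8 on the array without LIF. Mmp3 (stromelysin, a matrix protease) stood at 31.4 and 1436, a difference of -5.31. The matrix proteins Postn (8.2 and 641) and Col1a2 (39.5 and 1449) differed by -5.61 and -5.03. The others were Ms4a4d (-4.78), the natriuretic peptide protease Corin (-4.44), Cpxm1 (-4.22), the RNA-binding Igf2bp1 (-4.17), the homeobox factor Otx2 (-4.03), the carbonic anhydrase Car4 (-4.03), the trypsin inhibitor Spink1 (-4.01) and the aspartoacylase Aspa (-3.93).

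The 15 on the higher side differed less, apart from Erdr1. Erdr1 stood at 1339 with EGF and cAMP and 23.5 with LIF, a difference of 5.56. Its signal was 23.8 in the adult fibroblasts and 2084 and 2893 on the embryonic-derived arrays, so the adult-derived LIF array and the fibroblasts were the low ones among these 5. Erdr1 rests on 1 probe set of the kind that can take up RNA of related sequences. Akr1c18, a steroid dehydrogenase that inactivates progesterone, stood at 384.5 and 22.4 (3.83), and the carboxylesterase Ces1f at 128 and 9.2 (3.23). Receptors or ligands of developmental pathways were in the group: Notch4 (242.8 and 28.8, a difference of 2.87), the growth factor Tgfb2 (272 and 39.7, 2.63) and the FGF receptor Fgfr3 (119 and 19.6, 2.34). The remaining genes were Slc2a6 (2.86), the fast myosin heavy chain Myh2 (2.82), Fndc3c1 (2.69), the transglutaminase Tgm2 (2.66), Pi16 (2.64), the sialyltransferase St6galnac4 (2.44), Nat8f3 (2.35), the water channel Aqp5 (2.33) and Slurp1 (2.24). For Notch4, Ces1f and Akr1c18 the embryonic-derived arrays, both with LIF, also lay below the EGF and cAMP array, at 78.4 and 56.7, 9.1 and 9.4, and 28.9 and 34.6. Tgm2 went the other way, at 545.9 and 427.5 on the embryonic-derived arrays beside 381.7 with EGF and cAMP. So did Erdr1, as given above, and Myh2 (278.7 and 484.0, beside 135.1). Aqp5 was split, at 57.6 and 225.1 beside 194.0.

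**Figure D2:**
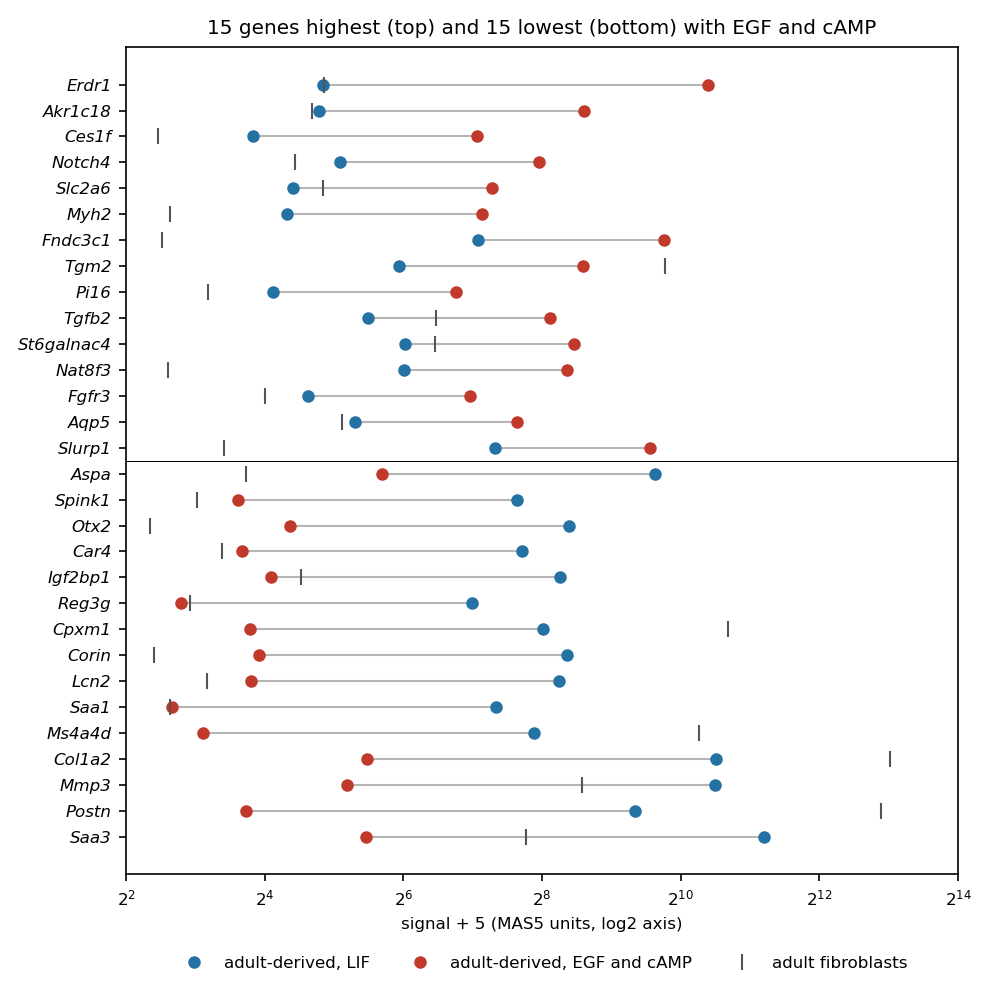
Signal + 5 (MAS5 units, log2 axis) of the 15 genes with the highest and the 15 with the lowest difference on the adult-derived arrays with LIF (blue) and with EGF and cAMP (red), and on the adult fibroblast array (tick), 1 array each. Col1a2, Postn, Cpxm1 and Ms4a4d of the lower block have their tick far to the right of both points, while Saa3 and Mmp3 have it between them.

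Among the genes of LIF signalling, the receptor parts and STAT3 itself differed little, and the effector genes split. Of 14 measured members of the receptor, kinase and STAT list 8 reached the minimum, with 0 higher and 1 lower and a median of -0.19. Lifr stood at 338 with EGF and cAMP and 603 with LIF (-0.83), Il6st at 156 and 198 (-0.34), and Stat3 at 638 and 710 (-0.15). Jak2 stood at 148 and 96.7 (0.59). The lower member was Osmr, the oncostatin M receptor and itself a STAT3 target, at 303 and 935 (-1.61). Lif was dim on both arrays (24.7 and 17.4).

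Of 27 measured STAT3 target and acute-phase genes 18 reached the minimum, with 6 lower and 1 higher beside the background of 5.47% and 1.94%, and a median of -0.53. The median over the 27 without a minimum was -0.55. Besides Saa3, Lcn2 and Osmr the lower ones were Serpina3n, a protease inhibitor of the acute phase (40.2 and 227, -2.36), the transcription factor Cebpd (357 and 967, -1.43) and the chemokine Ccl2 (150 and 360.5, -1.24). Haptoglobin (Hp), below the minimum on both arrays, stood at 1.7 and 29.0. Gadd45g, a growth arrest gene, was the higher member (154 and 71.6, 1.05).

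The feedback inhibitors of the same pathway did not follow the acute-phase genes. Socs3 stood at 1306 with EGF and cAMP and 1716 with LIF (-0.39), and its other probe sets gave -0.49 and -0.47. Socs2 stood at 568 and 613 (-0.11), the kinase gene Pim3 at 708 and 786 (-0.15), Timp1 at 781 and 946 (-0.28) and Bcl3 at 157 and 106 (0.54). Pim1 (95.7 and 166.5, -0.77) and the C/EBP factor Cebpb (362 and 679.5, -0.9) lay between these groups, though a dimmer probe set of Cebpb gave -1.21. The promoter of Socs3 holds a STAT motif and those of Saa3 and Lcn2 a C/EBP motif, as printed above. Those of Osmr and Serpina3n, which were also lower, hold none of the motifs searched. Whether the motifs bear on these differences was not tested. Markers of fibroblasts and of pluripotent cells were also lower on the EGF and cAMP array, as given below, and their part in these differences was not tested.

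EGF receptors, ligands and ERK targets were not higher as a group on the array with EGF. Of 19 measured ligands, receptors and adaptors 9 reached the minimum, 1 higher and 1 lower, with a median of -0.41. Egfr itself stood at 221 with EGF and cAMP and 257 with LIF (-0.21). The higher member was Lrig1, an inhibitor that promotes loss of EGF receptors and marks stem cells in epithelia, at 655 and 231 (1.48). On the embryonic-derived arrays Lrig1 stood at 624 and 604, so among the 4 induced cultures the adult-derived LIF array was the low one. Erbb3, the neuregulin receptor, was the lower member (117 and 277, -1.21). The ligands stayed below the minimum on both arrays, among them Hbegf (53.6 and 27.6) and Ereg (37.4 and 17.8).

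Of 31 measured ERK targets and feedback genes 21 reached the minimum, with 0 higher, 4 lower and a median of -0.28. The lower ones were Mmp3, the phosphatases Dusp1 (69.2 and 164, -1.19) and Dusp4 (134 and 274, -1.01), and the immediate-early gene Fos (152 and 311, -1.01). Egr1 stood at 321 and 525 (-0.7). Other feedback genes were not called: Dusp6 at 807.5 and 980.1 (-0.28), Spry2 at 616 and 710.0 (-0.2), Spry4 at 235 and 152 (0.61), Spry1 at 139.5 and 250.3 (-0.82) and Spred1 at 355.5 and 557 (-0.64). The ERK target Etv5 stood at 1386 and 1610 (-0.22), and its dimmer probe sets gave -0.95 and -0.7. Cyclin D1 (Ccnd1), a growth factor target of the G1 phase, stood at 1998 and 1599 (0.32). Fosl1 stood at 68.8 and 17.5, below the minimum on both.

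Targets of CREB were not higher on the array with cAMP. Of 37 measured targets 13 reached the minimum, with 0 higher and 3 lower and a median of -0.67. Over all 37 without the minimum the median was -0.27. The nuclear receptor Nr4a1, an immediate CREB target with 4 half-sites in its promoter, stood at 244 with EGF and cAMP and 208 with LIF (0.23). Crem, whose inducible form is a CREB target, stood at 37.8 and 36.3, the phosphodiesterase Pde4d at 140 and 155.5, and Pde4b at 23.8 and 23.6. The lower members were Fos, Dusp1 and the neurotrophin Bdnf (24.4 and 109.5, -1.96). In the list of cAMP and protein kinase A machinery, 16 of 39 measured members reached the minimum, with 0 higher, 0 lower and a median of -0.02. Creb1 stood at 634 and 442 (0.52), the catalytic subunit Prkaca at 624.5 and 516 (0.27), the G protein Gnas at 2675 and 2547 (0.07) and the cyclase Adcy1 at 104 and 55.4 (0.85).

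In the embryonic-derived pair, where cAMP was added to LIF, 2 of the same 13 CREB targets were higher and 1, Egr1 (-1.29), was lower, with a median of 0.12. Over all 7382 genes the shares of that pair were 0.84% higher and 0.786% lower. Of all genes measured, with no minimum, 439 were higher and 351 lower in that pair, and no share was computed for that setting. Over all 37 measured members, most of them below the minimum on the adult-derived arrays, 9 were higher and 1 lower, with a median of 0.52. These counts therefore have no share over all genes to be read against. Of the 6 members named next, chosen after their values were seen, Nr4a2, Pde10a and Tac1 are below that minimum and Nr4a1 differed by less than 2-fold. Nr4a2 stood at 41.1 with LIF and 228.5 with LIF and cAMP, against 43.1 with LIF and 66.4 with EGF and cAMP in the adult-derived pair. Ptgs2, the inducible cyclooxygenase, stood at 576 and 2920 in the embryonic-derived pair and at 311.5 and 194 in the adult-derived pair. Pde10a stood at 6.3 and 79.2 against 20.4 and 16.0. Tac1, the substance P precursor, stood at 58.6 and 283 against 10 and 5.0. Nr4a1 stood at 454 and 848 against 208 and 244, and Pde4d at 295 and 615 against 155.5 and 140. All 6 were brighter with cAMP in the embryonic-derived culture, and in the adult-derived pair 4 of them were brighter with LIF. The difference between the pairs was not tested, and origin, EGF and the presence of LIF all differ between them.

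**Figure D3:**
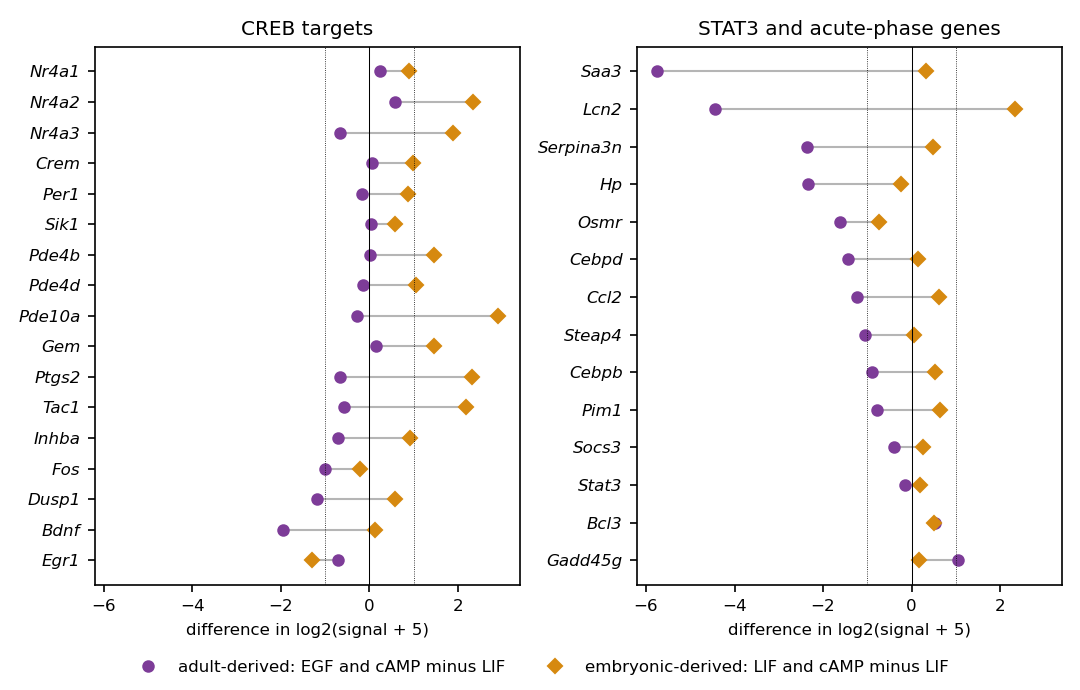
Difference in log2(signal + 5) for 17 of the 37 measured CREB targets (left) and 14 STAT3 and acute-phase genes (right), with circles for the adult-derived pair (EGF and cAMP minus LIF) and diamonds for the embryonic-derived pair (LIF and cAMP minus LIF), 1 array a side. Both panels show a selection of genes. Over all 37 CREB targets the median of the embryonic-derived pair was 0.52, and some targets not shown were lower with cAMP there. Dotted lines mark 2-fold; Pde10a, Nr4a2, Ptgs2 and Tac1 have diamonds above 2 and circles below 1, and Saa3 and Lcn2 have circles below -4 and diamonds above 0.

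The genes of fibroblast extracellular matrix formed the list with the most lower members. Of 38 measured genes 29 reached the minimum, with 23 lower and 0 higher (background 5.47% and 1.94%) and a median of -2.14. Without the minimum the median was -1.8. Collagen genes Col1a2 (39.5 with EGF and cAMP and 1449 with LIF), Col3a1 (286 and 1947, -2.74), Col1a1 (14.6 and 108.5, -2.53) and Col6a3 (134 and 524, -1.93) were lower. So were the cross-linking enzyme Lox (10.1 and 178, -3.6), the gelatinase Mmp2 (31.1 and 412, -3.53), the proteoglycan Bgn (102 and 1029, -3.27) and the matricellular Thbs1 (19.9 and 173.5, -2.84). The PDGF receptor Pdgfrb (23.9 and 143) and the YAP target Ccn2 (224 and 1152) differed by -2.36 and -2.34. The 6 members not called were fibronectin (Fn1) at 2186.5 and 2364, S100a4 at 2167 and 2246.5, Sparc at 1422 and 2134, Col6a2 at 120.2 and 192, Col6a1 at 305 and 192 and Fbln2 at 698 and 439. The cytoskeletal gene Vim stood at 4483 and 4129.

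Set against the adult skin fibroblasts, these genes were low on both arrays and lowest with EGF and cAMP. Over the 35 members at 100 or more in the fibroblasts, whatever their level in the neurospheres, the median stood at 10.5% of the fibroblast level with LIF and at 2.38% with EGF and cAMP. A level of 0.1 times that of the fibroblasts or less was found for 17 and 27 of the 35. On the embryonic-derived arrays the medians were 10.5% with LIF and 14.3% with LIF and cAMP, and the median difference of that pair over the 29 genes was -0.05. Col1a2 stood at 8334 in the fibroblasts and 1236 and 1195 on the embryonic-derived arrays, and Postn at 7569, 97.0 and 68.9. The signals of 6 fibroblast markers summed to 537 with EGF and cAMP, 4025 with LIF and 33044 in the fibroblasts, and 5 of the 6 were lower (all but Twist2, below the minimum). Fewer fibroblast-like cells in a culture and less RNA of these genes per cell cannot be told apart in bulk RNA. The contractile genes Acta2 (139 and 372, -1.39) and Cnn2 (113 and 400.4, -1.78) were the 2 lower of 8 smooth muscle genes at the minimum, none of which was higher. Of 17 basement membrane and integrin genes 2 were lower, Nid1 (206 and 468, -1.16) and Lama4 (441 and 926.5, -1.06).

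**Figure D4:**
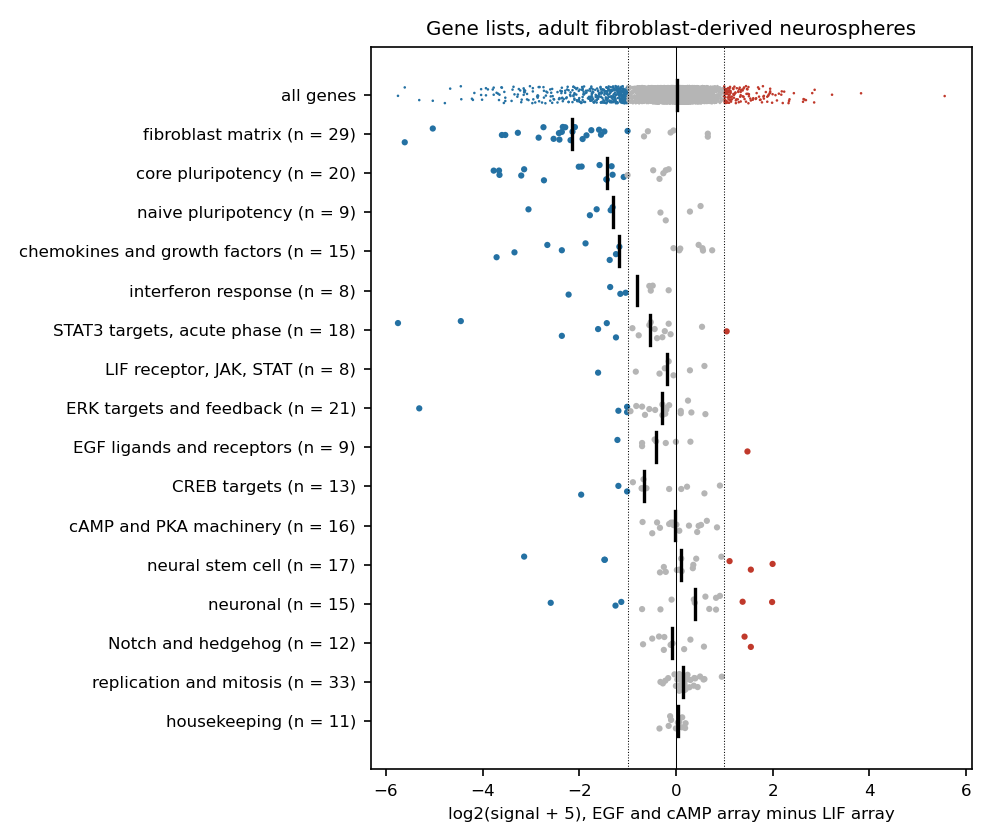
Differences in log2(signal + 5), EGF and cAMP array minus LIF array, of the genes at the minimum in 16 lists and of all 7382 genes, 1 array a medium. Each point is a gene, red and blue mark differences of 1 or more, and black bars are medians, from -2.14 for fibroblast matrix and -1.43 for core pluripotency to 0.15 for replication and mitosis and 0.39 for neuronal genes.

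Pluripotency genes were lower with EGF and cAMP, with a clear exception in Pou5f1. Of 25 measured core genes 20 reached the minimum, with 14 lower and 0 higher and a median of -1.43, the same without the minimum. Pou5f1, which encodes OCT4, stood at 1787 with EGF and cAMP and 2069 with LIF (-0.21), beside 2818 in iPS cells, 2462 in ES cells and 1.3 in the adult fibroblasts. Its partner Sox2 stood at 85.6 and 791 (-3.14), and at 1826 and 2092 on the embryonic-derived arrays. Nanog stood at 145 and 402 (-1.44), beside 1454 and 1845 in the embryonic-derived pair. In iPS and ES cells Sox2 stood at 3353 and 3418 and Nanog at 2779 and 2390. On both adult-derived arrays Pou5f1 was therefore nearer its pluripotent level than Sox2 and Nanog were to theirs. Sox2 and Nanog were further below it with EGF and cAMP than with LIF.

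Other members were lower by more. Dppa5a stood at 259 with EGF and cAMP and 3587.5 with LIF (-3.77), Dnmt3l, a cofactor of DNA methylation in the germ line, at 10.4 and 190.3 (-3.66), the RNA-binding Lin28a at 16.3 and 262.5 (-3.65) and Dppa4 at 9.3 and 126.5 (-3.2). The methyltransferase Dnmt3b stood at 260.0 and 1059 (-2.01). L1td1 (1977 and 2736), Eras (217 and 260.2), Phc1 (886 and 982) and Rif1 (714 and 904) were not called. Over the 22 core members at 100 or more in the mean of iPS and ES cells, the median share of that mean was 9.2% with EGF and cAMP, 36.1% with LIF, and 53.5% and 51.2% on the embryonic-derived arrays with LIF and with LIF and cAMP. A level of 0.1 times that mean or less was found for 12 of the 22 with EGF and cAMP, for 1 with LIF, and for 1 and 0 on those embryonic-derived arrays.

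Among the genes through which STAT3 holds up pluripotency, 8 of 12 reached the minimum, with 4 lower and 0 higher. The lower ones were Tfcp2l1 (122.5 and 434, -1.78), Nanog, Sall4 (287.5 and 732, -1.33) and Klf4 (131 and 340, -1.35). However, further probe sets of Sall4 and Klf4 gave -0.89 and -0.04. The median was -1.05, and -0.49 without the minimum. Nanog and Sall4 are also counted in the core list, and Klf4 and Tfcp2l1 in the naive list. Myc stood at 281 and 261 and Klf5 at 352 and 409. Of 16 measured naive genes 9 reached the minimum, with 5 lower, among them Dppa3 (12.1 and 137, -3.05) and Klf2 (46.7 and 156, -1.64). The naive marker Zfp42 was below the minimum at 5.2 and 79.1, and stood at 346 and 475.5 on the embryonic-derived arrays and at 3058 and 4299 in iPS and ES cells. Genes of the primed epiblast also differed: Otx2 (15.5 and 329), Pou3f1 (37.1 and 178.5, -2.12), Lefty1 (43.9 and 310, -2.69) and Nodal (56.7 and 218, -1.86) were lower, and 0 of 6 were higher. Fgf5 stood at 3.6 and 92.4, below the minimum.

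**Figure D5:**
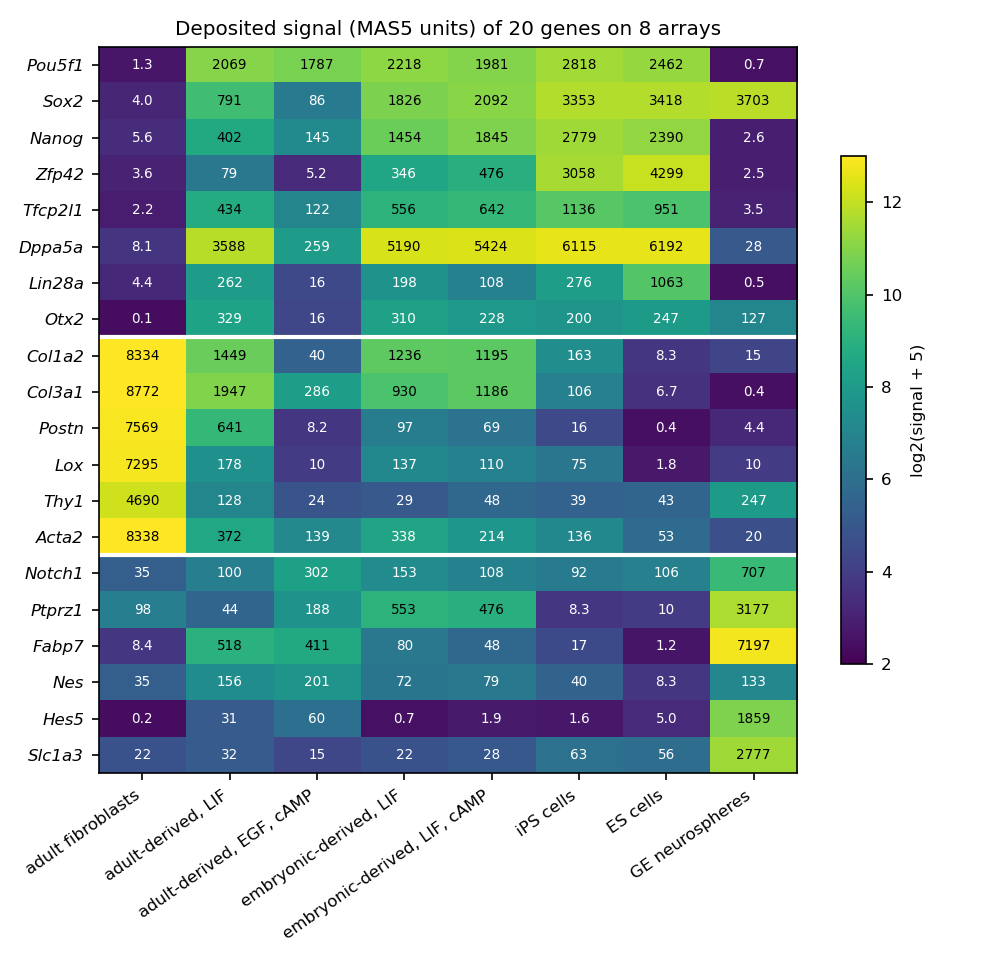
Deposited signal (numbers, MAS5 units; colour, log2(signal + 5)) of 8 pluripotency genes, 6 fibroblast genes and 6 neural genes on 8 arrays, 1 for each culture. Pou5f1 stands at 1787 to 2218 on all 4 fibroblast-derived arrays, whereas Sox2, Dppa5a and Col1a2 have their lowest value of those 4 with EGF and cAMP, and Hes5 and Slc1a3 stand at 1859 and 2777 in the GE neurospheres and between 0.2 and 63 elsewhere.

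Neural genes were divided, and of 8 defining neural stem cell markers 4 stayed below the minimum in either medium. Of 28 measured neural stem cell genes 17 reached the minimum, with 3 higher and 3 lower and a median of 0.11. The higher ones were Ptprz1, a receptor phosphatase of neural progenitors (188.5 with EGF and cAMP and 43.5 with LIF, a difference of 2.0), the receptor Notch1 (302 and 99.9, 1.55) and Sox21 (256 and 116, 1.11). Sox2, the oligodendrocyte lineage factor Olig1 (79.6 and 231, -1.48) and Prom1 (241 and 677.5, -1.47) were lower. Nestin (Nes) stood at 201 and 156 (0.36), Sox1 at 287 and 272 (0.07) and Fabp7 at 411 and 517.5 (-0.33), the last beside 7197 in the GE neurospheres. Pax6, Olig2, Hes5 and Slc1a3 were below the minimum on both arrays, between 15 and 59.7. The 8 neural stem cell markers summed to 1071 with EGF and cAMP, 2271 with LIF and 17340 in the GE neurospheres. Of these markers only Sox2 and Prom1 were called, and Nes, Pax6 and Hes5 were brighter with EGF and cAMP. The same sum was 3720.5 in iPS cells and 3592 in ES cells, where Sox2 alone stood at 3353 and 3418.

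Of 32 measured neuronal genes 15 reached the minimum, 2 higher and 3 lower, with a median of 0.39 but -0.24 without the minimum. The synaptic calcium sensor Syt1 (127 and 28.3, 1.99) and Uchl1 (283 and 106, 1.38) were higher, and Nefm (13.9 and 109, -2.59), the glutamate transporter Slc17a6 (100.4 and 246, -1.25) and Ina (44.1 and 102, -1.13) lower. Stmn2 stood at 1368 and 767 (0.83) and Tubb3 at 138 and 147.5 (-0.09). In the oligodendrocyte list Ugt8a (144 and 37.6, 1.81) and Cnp (288 and 107, 1.38) were higher while Olig1, Mbp and Myrf were lower. Of the radial glia and astrocyte list 3 of 8 were lower, namely Apoe (133 and 671, -2.29), Clu (90.3 and 316, -1.75) and Tnc (36.0 and 118, -1.59), and Gfap was at 0.2 on both arrays.

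In the Notch and hedgehog list 2 of 12 genes were higher, Notch1 and the fringe enzyme Mfng (129.5 and 45.4, 1.42), and 0 lower. The ligands Dll1 (128 and 84.0, 0.58) and Jag1 (434 and 352, 0.3) and the target Hes1 (104 and 125, -0.25) were not called. Notch4 lies outside these lists and was named for its size. Of 6 FGF pathway genes at the minimum Fgfr3 was higher, and Fgf15 (7.4 and 116, -3.28), Fgfbp1 (342 and 1375, -1.99) and Fgf4 (119 and 303, -1.31) were lower.

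Epithelial genes, which both cultures carried, were partly lower. E-cadherin (Cdh1) stood at 529 with EGF and cAMP and 937 with LIF (-0.82) and Epcam at 692 and 865 (-0.32). The partner keratins Krt8 (169 and 504, -1.55) and Krt18 (18.8 and 270.1, -3.53) were lower, and the desmosomal Pkp1 (312 and 137, 1.16) was higher. Of 16 adhesion genes 4 were lower, Cdh11 (-1.44), Cldn4 (-1.41), Ocln (-1.10) and Twist1 (-1.48), and Tgfb2 was higher. The median was -0.75.

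Proliferation and maintenance genes differed by less than 2-fold. Of 33 replication and mitosis genes 0 were higher and 0 lower, with differences from -0.32 to 0.95 and a median of 0.15 (-0.19 with the arrays scaled to the hybridization controls). Mki67 stood at 1085 with EGF and cAMP and 717 with LIF (0.59), Top2a at 1113 and 1110 and Pcna at 2517 and 2570.0. E2f1 was the highest member (178 and 89.4, 0.95). The 19 sterol synthesis genes and 11 housekeeping genes had 0 called either way.

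Secreted immune and growth factors were lower in 8 of 15 cases and higher in 0, with a median of -1.17 but -0.31 without the minimum. The chemokine Cxcl12 stood at 13.8 with EGF and cAMP and 240.2 with LIF (-3.71), the alarmin Il33 at 26.4 and 156 (-2.36), and the binding proteins Igfbp7 at 52.7 and 578.5 (-3.34) and Igfbp4 at 14.1 and 116 (-2.66). Pdgfa stood at 297.5 and 175.0 (0.75) and Tslp at 101 and 67.6 (0.55). Macrophage markers summed to 118 with EGF and cAMP and 83.5 with LIF. Ptprc, a marker of nucleated blood cells, was the 1 of these that was brighter with EGF and cAMP (90.6 and 40.2, 1.08, below the minimum), and Lyz2 (11 and 22.7), Csf1r and Tyrobp lay between 4.1 and 22.7 on both arrays. On the embryonic-derived LIF array Lyz2 stood at 1434. Of the 4 endothelial markers only Tek reached the minimum (243 and 249).

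The embryonic-derived pair had fewer calls over the same 7382 genes: 62 (0.84%) higher and 58 (0.786%) lower with LIF and cAMP than with LIF, 120 (1.63%) in all. The SD of its differences over genes was 0.33, against 0.63 in the adult-derived pair. Genes higher with cAMP in both pairs numbered 9, which is 6.29% of the 143 and 14.5% of the 62. They included Ugt8a (37.6 and 144 in the adult-derived pair, 104 and 570.4 in the embryonic-derived pair), the calcium-activated channel Kcnn4 (82.4 and 190.5, 113 and 351), the natriuretic peptide Nppb (206 and 428, 497 and 1157), Aqp5 (34.5 and 194, 57.6 and 225) and the membrane protein Gpm6b (241.5 and 928, 108 and 308).

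About as many genes went opposite ways as the same way. Opposite were 3 genes higher with EGF and cAMP and lower with cAMP in the embryonic-derived pair (Tgfb2, Hbb-y and Anxa6) and 32 the other way round. These 32 are 7.92% of the 404 genes lower with EGF and cAMP, and 51.6% of the 62 higher with cAMP in the embryonic-derived pair. Lower in both pairs were 25, which is 6.19% of the 404 and 43.1% of the 58. Over all 7382 genes 1.94% were higher and 5.47% lower in the adult-derived pair. In the embryonic-derived pair 0.84% were higher and 0.786% lower. The shares of overlap lie above these in the same and in opposite directions, which was not tested. Lcn2 stood at 182 with LIF and 937.5 with LIF and cAMP, against 299 with LIF and 8.9 with EGF and cAMP. Mmp3 stood at 492 and 1225 against 1436 and 31.4, and Saa3 at 1198.5 and 1500.5 against 2345 and 38.8. Saa3 was thus at 1198.5 or more on the 3 fibroblast-derived arrays labelled with LIF, and at 27.4 in iPS cells and 16.8 in ES cells. Not every acute-phase gene was high on those 3 arrays. Serpina3n stood at 18.7 and 28.0 on the embryonic-derived arrays, below its 40.2 with EGF and cAMP, and Reg3g at 4.1 and 2.8. The matrix gene Dcn stood at 151 and 978 against 1048 and 242. Across all genes the differences of both pairs correlated at -0.024.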

How the data were processed

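RNA of 12 cultures was measured on Affymetrix arrays, of which the 2 adult-derived ones are compared and the others used for reference. The deposited values are signal intensity on a linear scale, for which the submitters' processing notes name MAS5 and version 1.1 of Affymetrix Expression Console. On every array the 2%-trimmed mean was 100. A change in total RNA is hidden by this scaling, MAS5 values are noisy where probe sets are dim, and detection calls were not used here.

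From these intensities log2(signal + 5) was computed with pandas 2.3.3 and numpy 2.4.6, for probe sets at 100 or more on 1 of the 2 arrays. Gene names came from GEO's annotation of the platform: 34945 name 1 gene, 932 several and 9160 none, besides 64 controls. Of the first, 34754 matched a RefSeq gene table of GRCm38.p6, which changed 0 symbols. A gene was represented by the probe set naming it alone with the highest mean over 12 arrays. Where a gene had probe sets at the minimum, only these were eligible. Every group holds 1 array and nothing says that cultures were repeated, so no test was run and no SD or interval over arrays was computed; an SD over genes describes 1 pair of arrays, and the number of arrays limits the precision. The counting code was checked on simulated data.

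The text names the 15 largest differences in each direction among genes whose probe sets share a sign, up to 4 called members a direction in each list, and cell type markers. It also names, whatever their difference, members of the LIF, EGF, cAMP, STAT3, CREB and ERK lists and of the list of STAT3 targets in pluripotency. Genes named beyond this were chosen after their values were seen. Among these are uncalled members of other lists, core pluripotency included, and genes that differ in both pairs. The 40 lists hold 891 genes, 846 measured and 454 at the minimum, and list medians are given for lists of 8 or more. The members and lists were chosen with earlier results of these data known. A gene near the minimum can enter through its brighter array alone, so medians without a minimum stand beside the lists, and shares of a reference level use members at 100 or more on the reference arrays, a choice made after seeing the data.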

Additional observations from a re-analysis of the deposited data

How the results depend on the processing

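No paired analysis was possible because each group holds 1 array and all replicate numbers are 1. For the same reason no array could be left out. No named gene or list median past 2-fold changed sign under the alternatives run, which were offsets of 1 and 20, minimum signals of 20, 200 and none, a common median, quantile normalization, the mean of a gene's probe sets, the probe set brightest over the 2 arrays and, chosen after seeing the data, scaling to the hybridization controls. Small values did: 13 named genes under 2-fold and 8 list medians under 2-fold took the other sign under at least 1 setting. The median of all genes, at 0.02, gave -0.07 with a common median. Scaled to the controls, the medians of replication, sterol synthesis, housekeeping and neural stem cell genes gave -0.19, -0.18, -0.3 and -0.23, and neuronal genes gave -0.4 at a minimum of 20 and -0.24 with none. Of 126 named genes past 2-fold, 108 stayed past it under each of the alternatives above in which they were still present. A gene that a higher minimum removed was not counted against this. Counts moved most. Genes higher with EGF and cAMP numbered 321 at a minimum of 20, 73 at 200, 554 with none, 61 scaled to the controls, 47 at 3-fold and 235 with every probe set on its own. Lower ones numbered 890, 233, 1228, 700 and 189 under the first 5 of these. In the embryonic-derived pair, whose alternatives were also added later, higher genes numbered 165, 29 and 439 and lower ones 150, 31 and 351 at a minimum of 20, 200 and none, and lower ones 35 at an offset of 20. Lower members numbered 10 for STAT3 targets with no minimum, and 9, 15 and 4 for core pluripotency, fibroblast matrix and secreted factors at 200. List medians crossed 1 in these cases. STAT3 targets in pluripotency, at -1.05, gave -0.97 at an offset of 20, -0.49 with no minimum, -0.73 with the mean of probe sets and -0.49 with the brightest over the 2 arrays. Naive genes, at -1.31, gave -0.81 at 200, -0.69 with the mean and -0.32 with the brightest. Secreted factors, at -1.17, gave -0.98 at an offset of 20, -0.05 at 200 and -0.31 with no minimum. Scaled to the controls, CREB targets gave -1.0, adhesion genes -1.08 and interferon genes -1.12. A minimum changes which genes enter; otherwise the cause was not tested.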

Other observations

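Of 8 Hox and regional genes at the minimum, which mark position along the body axis, 2 were higher, 1 lower and 5 not called, beside 1.94% higher and 5.47% lower over all genes. Hoxc4 (261 with EGF and cAMP and 100 with LIF, 1.34) and Hoxb3 (186 and 82.6, 1.12) were higher, and Otx2, a gene of the head end, was lower (-4.03). Hoxc4 stood at 1.0 and 2.2 and Hoxb3 at 13.2 and 21.9 on the embryonic-derived arrays. Of 13 imprinted genes 5 were lower and 0 higher (median -0.66), among them the zinc finger gene Plagl1 (88.3 and 716, -2.95), Mest (174 and 828, -2.22), Igf2 (58.9 and 160.1, -1.37) and the noncoding Rian (50.9 and 131, -1.28), while Peg3 stood at 1761.5 and 2385 (-0.44) and Ndn at 436 and 309 (0.49). Of 21 glycolysis and hypoxia genes 5 were lower and 0 higher. These were the mitophagy gene Bnip3 (211 and 585, -1.45), Ankrd37 (-1.53), Ero1a (-1.13), Egln3 (-1.07) and the glucose transporter Slc2a3 (1547 and 3121.5, -1.01), whereas Ldha stood at 3464 and 3325 (0.06). Dimmer probe sets of Ero1a gave -0.49 and -0.95. Xist, the RNA of the inactive X chromosome, had signals of 2342 with EGF and cAMP and 2111 with LIF.

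Interferon-response genes were lower in 4 of 8 cases (median -0.79), Ifi27 (107 and 520, -2.22), Oas1a (-1.36), Gbp2 (-1.15) and H2-K1 (-1.04). A further probe set of H2-K1 at the minimum gave -0.44. In the embryonic-derived pair 4 of the 8 were higher with LIF and cAMP, beside 0.84% of all genes in that pair. H2-K1 stood there at 739 and 2136.5 and B2m at 1169 and 3436. Some called genes are chromosomal neighbours among the measured protein-coding genes, and the number of such runs to expect was not computed. The longest run was Gdf3, Dppa3, Nanog and Slc2a3 on chromosome 6, all lower, and Dppa4 and Dppa2 on chromosome 16, Krt8 and Krt18 on chromosome 15 and Col3a1 and Col5a2 on chromosome 1 were lower side by side. Npy, Mpp6 and Gsdme on chromosome 6 were higher. The embryonic globin Hbb-y stood at 5046 with EGF and cAMP and 1102 with LIF, and at 0.4 in the adult fibroblasts, though near-identical globin genes may share its probe set.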
